A study of Mus musculus with 4 samples.

Results

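The enzymes that turn farnesyl diphosphate by way of squalene into cholesterol were measured in the adrenal glands of 2-month-old male mice. The 9 genes were taken in pathway order as Fdft1, Sqle, Lss, Cyp51, Tm7sf2, Nsdhl, Hsd17b7, Sc5d and Dhcr7, and every probe set annotated to exactly 1 of them was used, 21 of the 45037 probe sets on the array. A probe set is a group of short oligonucleotides that together read 1 transcript. Of the 21, 13 had at least 4 log2 units on 2 or more arrays and were tested, and each of the 9 genes had at least 1 of them. Over the whole array 17228 probe sets passed the same filter, and they named 10110 genes.

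The study compared V1a knockout (KO) glands, 2 arrays, with wild-type (WT) glands, 2 arrays, 1 sample per array. V1a is a receptor for the hormone vasopressin and couples to Gq and calcium. The labels give neither the strain, nor the deleted part of the gene, nor the number of animals in a sample, so the p-values cover only sample-to-sample spread, and this may be technical. The values are GCRMA log2 expression units, in which a step of 1 is a 2-fold step. The lowest value on the arrays, 2.30, is a floor at which a probe set is not read above background.

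Cholesterol synthesis runs from acetyl-CoA through mevalonate and the isoprenoid diphosphates to squalene, which is then oxidised, closed into the first sterol, lanosterol, and trimmed in several steps to cholesterol. In most cells the genes of these enzymes are switched on together by the SREBP transcription factors when membrane sterol is low. The adrenal cortex turns cholesterol into corticosteroids, and in mice it takes up much of that cholesterol from lipoproteins beside making its own.

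In the knockout glands the means of all 9 enzymes lay below those in wild-type glands, which held for 56.0% of all genes, and for 8 of the 9 both knockout arrays lay below both wild-type arrays. Over all genes tested, 20.5% had both knockout arrays below both wild-type arrays. The median difference, knockout minus wild type, was -0.96 log2 units over the 9 genes and -0.05 over all 10110 genes. For 4 of the 9, Tm7sf2, Cyp51, Hsd17b7 and Sqle, the knockout mean was lower by at least 1 log2 unit, which held for 1.34% of all genes. None of the 9 had an adjusted p under 0.05 in limma, a linear model fitted over all probe sets, and neither did any other gene (0.00%). The adjusted p was 0.794 for 12 of the 13 probe sets and 0.843 for the other one. In limma at an unadjusted p under 0.05, 7 of the 9 genes lay lower in the knockout, against 2.93% of all genes. With 2 arrays per genotype, an exact two-sided permutation test of a single gene cannot give a p below 0.333.

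**Figure D1:**
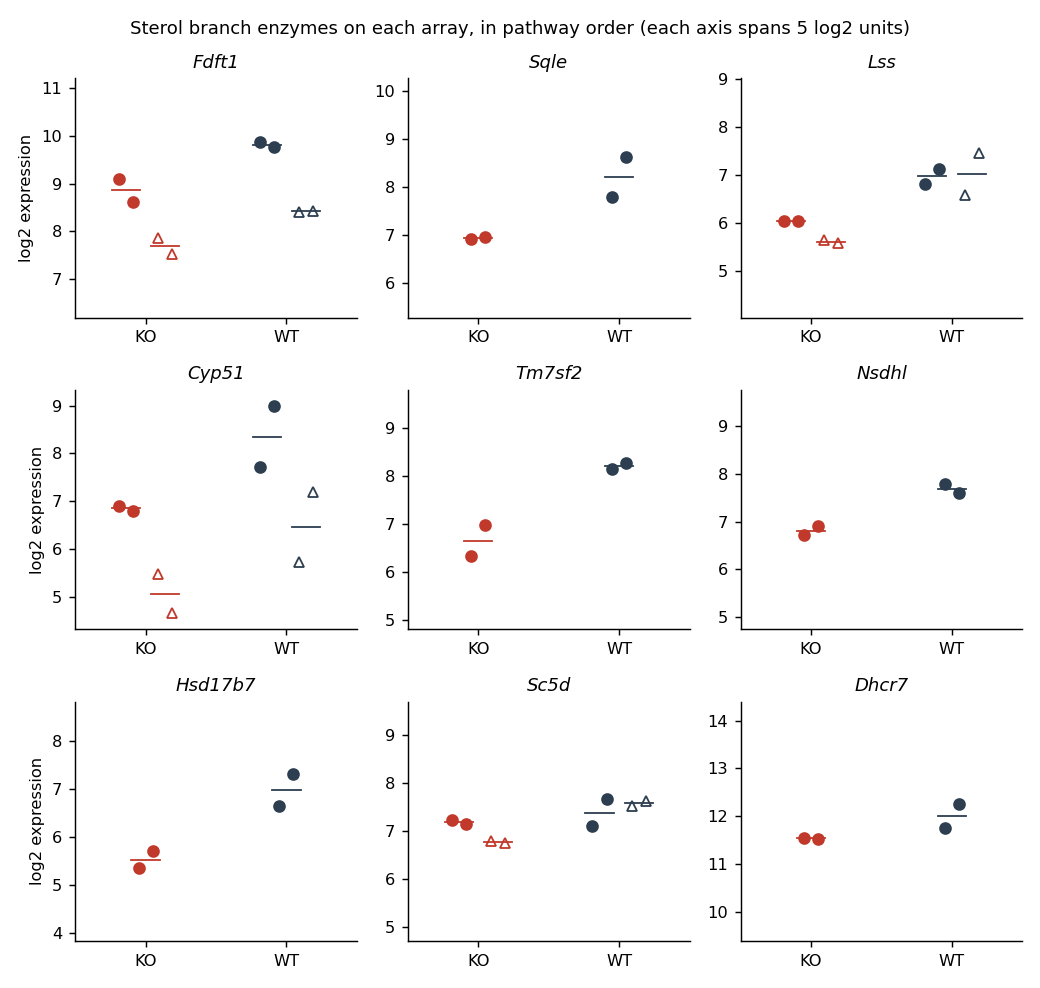
Expression of the 9 sterol branch enzymes on each array in log2 units, in pathway order, with knockout (KO) left of wild type (WT), array 1 left of array 2 and a line at each mean. Filled circles are the brightest probe set of a gene and open triangles its other tested probe set. The circles of the groups overlap only in Sc5d, while the triangles of Sc5d do not overlap.

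Fdft1, squalene synthase, joins a pair of farnesyl diphosphate molecules into squalene and so commits the isoprenoids to sterols. Its gene lies at chr14:63145150-63181687 (GRCm38.p6). The brightest probe set of Fdft1 read 9.10 and 8.61 in knockout glands, against 9.87 and 9.76 in wild-type glands. The knockout arrays were both lower and the wild-type arrays were the closer pair, with an SD of 0.08 (n = 2). The difference was -0.96 (SE 0.24). A plain probe set of Fdft1 read 7.85 and 7.52 in knockout glands, against 8.41 and 8.44 in wild-type glands, a difference of -0.73 (SE 0.20). The brightest one carries the suffix _x_at, which the array maker gives to probe sets that may also read similar transcripts. Both probe sets put the knockout arrays below the wild-type arrays.

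Sqle, squalene epoxidase, adds the first oxygen to squalene and is known as a slow, closely regulated step of the branch. It lies at chr15:59315092-59331193. Its 1 probe set read 6.92 and 6.96 in knockout glands, against 7.78 and 8.62 in wild-type glands. The knockout arrays nearly coincided, and the wild-type arrays were 0.83 apart. The mean was 6.94 ± 0.03 in knockout glands and 8.20 ± 0.59 in wild-type glands (SD, n = 2 each), a difference of -1.26 (SE 0.34) or a ratio of 0.418.

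Lss, lanosterol synthase, folds squalene epoxide into the 4 rings of lanosterol. It lies at chr10:76531565-76557139. Its brightest probe set read 6.03 and 6.04 in knockout glands, against 6.81 and 7.14 in wild-type glands, and the groups did not overlap. The difference was -0.94 (SE 0.20). The other tested probe set of Lss gave a wider gap, with 5.65 and 5.58 in knockout glands, against 6.59 and 7.47 in wild-type glands, a difference of -1.42 (SE 0.36). On both of them wild-type array 2 was the highest array.

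Cyp51, lanosterol 14-demethylase, is a cytochrome P450 that takes the first methyl group off lanosterol. It lies at chr5:4080674-4104697. Its brightest probe set read 6.91 and 6.80 in knockout glands, against 7.71 and 8.99 in wild-type glands. The wild-type SD of 0.91 was the largest among the 9 genes, and the difference was -1.50 (SE 0.50). Against wild-type array 1 alone the difference was -0.86, and against wild-type array 2 alone it was -2.14. The other tested probe set of Cyp51 read 5.48 and 4.66 in knockout glands, against 5.73 and 7.19 in wild-type glands. Its groups were only 0.25 apart at the nearest point, and the difference was -1.39 (SE 0.63). The direction of Cyp51 was thus the same against either wild-type array, and its size was not.

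Tm7sf2, a sterol 14-reductase that saturates the double bond left by Cyp51, had the lowest difference of the 9. It lies at chr19:6062821-6067850. Its 1 probe set read 6.32 and 6.97 in knockout glands, against 8.15 and 8.28 in wild-type glands. Here the wild-type arrays were the close pair, and the higher knockout array was still 1.17 below the lower wild-type array. The difference was -1.56 (SE 0.29), a ratio of 0.339, and rank 35 from the lowest among 10110 genes.

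Nsdhl and Hsd17b7 act in turn in removing the methyl groups at carbon 4, Nsdhl as a decarboxylating dehydrogenase and Hsd17b7 as the 3-keto reductase. Nsdhl lies at chrX:72918521-72958528 and read 6.72 and 6.90 in knockout glands, against 7.78 and 7.59 in wild-type glands. Its spread was alike in both groups, with an SD of 0.13 each, and the difference was -0.87 (SE 0.18). Hsd17b7 lies at chr1:169949535-169969242 and read 5.34 and 5.70 in knockout glands, against 6.65 and 7.30 in wild-type glands, a difference of -1.46 (SE 0.31). Hsd17b7 rests on 1 probe set with the suffix _x_at. Its other 3 probe sets stayed at 2.30 or 2.31 on all 4 arrays, so no plain probe set of Hsd17b7 gave a reading.

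Sc5d, lathosterol oxidase, puts in the double bond at carbon 5, and its probe sets disagreed in size. It lies at chr9:42251592-42264300. The brightest probe set read 7.24 and 7.14 in knockout glands, against 7.11 and 7.66 in wild-type glands. Wild-type array 1 was the lowest of the 4, the groups overlapped, and the difference of -0.19 (SE 0.26) was smaller than its error. The other tested probe set of Sc5d read 6.80 and 6.74 in knockout glands, against 7.52 and 7.63 in wild-type glands. There the groups did not overlap and the difference was -0.80 (SE 0.16). The mean brightness of these probe sets is close, so which of them stands for Sc5d decides its value: the average of both gave -0.50.

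Dhcr7, the reductase that makes cholesterol from 7-dehydrocholesterol, is the last enzyme of this order. It lies at chr7:143823167-143848410. Its 1 probe set read 11.55 and 11.54 in knockout glands, against 11.75 and 12.26 in wild-type glands. The nearest arrays of the groups were 0.19 apart, the narrowest gap among the 8 genes without overlap. The difference was -0.46 (SE 0.24, a ratio of 0.728), and 11.2% of all genes had a difference as low or lower. Against wild-type array 1 alone the difference of Dhcr7 was -0.20, and against wild-type array 2 alone it was -0.71. In limma Dhcr7 had an unadjusted p of 0.136 and Sc5d one of 0.497, and these were the 2 of the 9 genes above 0.05.

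**Figure D2:**
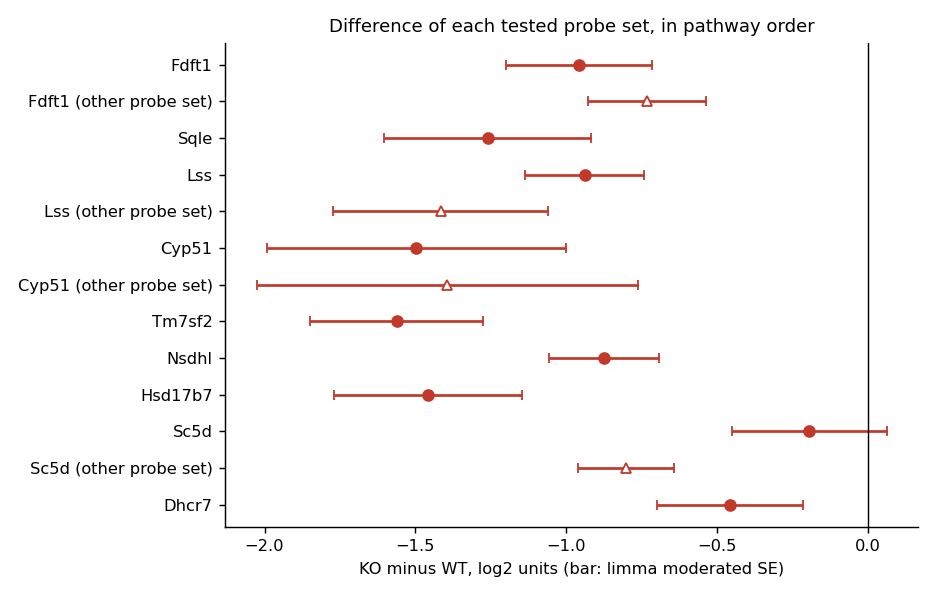
Difference of each of the 13 tested probe sets, knockout minus wild type, in log2 units and in pathway order, with limma's moderated SE as bars. Filled circles stand for the gene and open triangles are its other tested probe set. All 13 lie below 0, from -1.56 in Tm7sf2 to -0.19 in Sc5d.

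The remaining 8 probe sets of these genes were not tested, and none of them read above 2.62 on any array. They belonged to Fdft1, Lss, Cyp51, Hsd17b7 and Sc5d. Of the 13 tested probe sets, 12 had both knockout arrays below both wild-type arrays, against 20.0% of all tested probe sets. The 4 lowest differences belong to Sqle, Cyp51, Tm7sf2 and Hsd17b7, with enzymes of smaller differences before, between and after them. By brightest probe set the smallest differences were those of Sc5d and Dhcr7, the last of the order, at -0.19 and -0.46. All enzymes of the 9 before them lay between -1.56 and -0.87. The other tested probe set of Sc5d, at -0.80, was nearer to those. Outside the 9, Msmo1, Ebp, Lbr and Ebpl of the same branch gave -0.23, -0.35, -0.03 and 0.11. Differences between the enzymes were not tested.

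**Figure D3:**
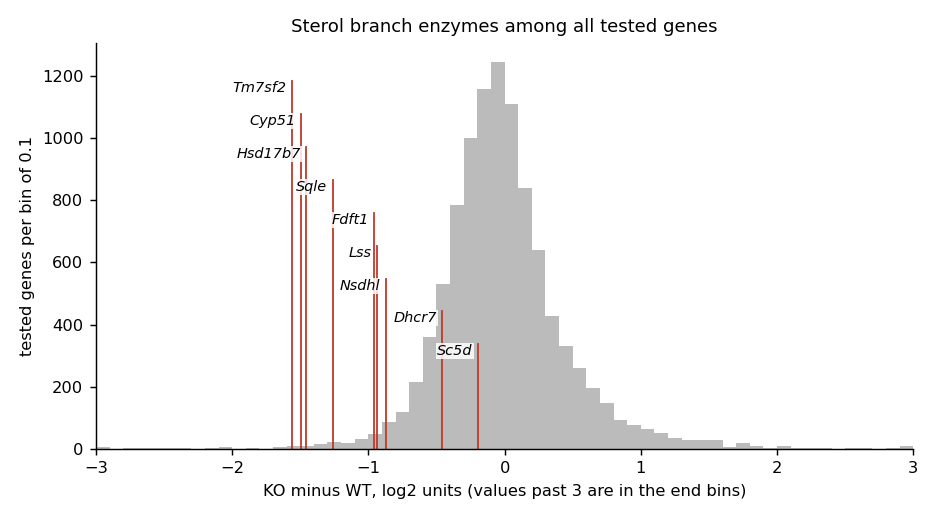
Grey bars count the 10110 tested genes by knockout minus wild type in log2 units, in bins of 0.1, and red lines mark the 9 enzymes. The lines of 7 enzymes lie at or below -0.87, in the lower tail, and those of Dhcr7 and Sc5d lie within the bulk of the genes.

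The arrays within a genotype were not equally close. Over the 9 genes the median SD was 0.07 in knockout glands and 0.36 in wild-type glands, beside 0.10 and 0.31 over all genes, and the wild-type SD was the larger one in 7 of the 9. Wild-type array 2 was above wild-type array 1 in 7 of the 9, with a median step of 0.51, while over all genes that median step was -0.20. Between the knockout arrays the median step, array 2 minus array 1, was 0.00. Wild-type array 1 stood apart over the whole array: across tested probe sets it correlated at 0.919 to 0.924 with the other 3, which correlated at 0.974 to 0.986 among themselves. Without wild-type array 1 the median difference of the 9 genes was -1.11 and all 9 had both knockout arrays below the wild-type array left. Without wild-type array 2 it was -0.86, 8 of the 9 stayed lower, and Sc5d was higher in the knockout by 0.08.

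The upstream sequence of these genes is shown because their readings lay lower together. RefSeq windows of 250 bases before and 50 after a start (GRCm38.p6) matched 7 of the 9 genes, with 9 windows. Fdft1 and Sqle had none. Below are 120 bases before the first annotated base of 6 genes, 5′ to 3′ on the gene's strand. Capitals mark CCAAT, the letters bound by NF-Y, and GGGCGG, the letters bound by Sp1, on either strand, where they read ATTGG and CCGCCC on the opposite one. The stretches are chr10:76531445-76531564 (plus strand) for Lss, chr5:4104698-4104817 (minus strand) for Cyp51, chr19:6067851-6067970 (minus strand) for Tm7sf2, chrX:72918401-72918520 (plus strand) for Nsdhl, chr1:169969243-169969362 (minus strand) for Hsd17b7 and chr9:42264301-42264420 (minus strand) for Sc5d.
Lss: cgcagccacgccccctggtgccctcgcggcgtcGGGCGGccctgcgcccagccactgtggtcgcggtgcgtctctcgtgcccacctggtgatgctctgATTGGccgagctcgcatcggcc
Cyp51: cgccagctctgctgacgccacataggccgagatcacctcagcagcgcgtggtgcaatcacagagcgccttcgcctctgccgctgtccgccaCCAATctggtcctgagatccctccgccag
Tm7sf2: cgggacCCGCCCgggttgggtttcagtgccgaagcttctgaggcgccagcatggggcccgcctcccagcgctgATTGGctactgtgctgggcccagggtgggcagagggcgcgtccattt
Nsdhl: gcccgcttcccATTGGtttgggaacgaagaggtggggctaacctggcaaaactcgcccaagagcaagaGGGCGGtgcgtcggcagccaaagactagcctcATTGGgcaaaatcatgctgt
Hsd17b7: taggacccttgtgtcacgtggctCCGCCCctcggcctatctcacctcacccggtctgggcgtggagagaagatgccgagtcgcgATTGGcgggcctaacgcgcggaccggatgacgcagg
Sc5d: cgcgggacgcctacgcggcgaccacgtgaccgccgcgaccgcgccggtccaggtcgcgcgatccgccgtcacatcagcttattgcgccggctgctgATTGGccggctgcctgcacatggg

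Each of the 6 printed stretches holds CCAAT on 1 of the strands. The matching stretch of Dhcr7, chr7:143823047-143823166 (plus strand), is not printed and holds neither CCAAT nor GGGCGG on either strand. Over the full windows CCAAT was found in all 7 genes, against 42.7% of the 8243 tested genes with a window, and in 37.4% of all 32851 windows. For Dhcr7 it lay in only 1 of its 3 windows, that of a start inside the annotated gene. GGGCGG was found in all 7 genes too, against 71.5% of tested genes and 35.7% of all windows. CACGTG, an E-box, was found in Hsd17b7, Sc5d and Dhcr7, against 12.1% of tested genes and 7.15% of all windows. TCACNCCAC, core letters of a sterol regulatory element, was found in none of the 7, against 1.36% of tested genes and 1.24% of all windows. All 4 sets of letters were searched on both strands, and none of them contains another. A match describes letters only, and its absence says only that these letters are not in this window.

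Other enzymes of the same branch did not all go with the 9. Of 4 measured genes, Msmo1, Ebp, Lbr and Ebpl, 3 had a lower knockout mean, the median was -0.13, and 0 had an unadjusted p under 0.05 in limma. Msmo1, the methyl oxidase that acts between Tm7sf2 and Nsdhl, read 10.21 and 10.13 in knockout glands, against 9.62 and 11.17 in wild-type glands, so that the knockout arrays lay between the wild-type ones. Ebp, the sterol isomerase before Sc5d, read 7.99 and 8.16 in knockout glands, against 8.58 and 8.27 in wild-type glands, a difference of -0.35 (SE 0.20). Ebpl, a relative of Ebp, was the 1 gene with a higher knockout mean, at 0.11 (SE 0.39). Lbr read 7.18 and 6.76 in knockout glands, against 6.75 and 7.25 in wild-type glands. Its groups overlapped and its difference was -0.03 (SE 0.28), unlike that of Tm7sf2.

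Cytochrome b5 proteins, their reductase and other partners pass electrons to the branch's oxidases or hold its enzymes together. All 6 measured ones had a lower knockout mean, with a median of -0.33, and 0 had an unadjusted p under 0.05 in limma. In 5 of the 6 both knockout arrays lay below both wild-type arrays, against 20.5% of all genes. Erg28, a scaffold for the enzymes at carbon 4, read 6.62 and 6.60 in knockout glands, against 7.58 and 6.96 in wild-type glands, a difference of -0.66 (SE 0.27). Against wild-type array 1 alone it was -0.97, and against wild-type array 2 alone -0.35. Cyb5r3, the cytochrome b5 reductase, differed by -0.34 (SE 0.16).

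The isoprenoid steps that feed Fdft1 gave a median of -0.81 over 7 measured genes. Of these 3 had an unadjusted p under 0.05 in limma, all 3 lower in the knockout, against 2.93% of all genes. Fdps, which makes the substrate of Fdft1, averaged 7.92 ± 0.15 in knockout glands and 9.25 ± 0.03 in wild-type glands (SD, n = 2 each). Hmgcs1 differed by -1.44 (SE 0.25) and Idi1 by -1.80 (SE 0.33). The other tested probe set of Idi1 read 8.02 and 8.37 in knockout glands, against 4.81 and 10.02 in wild-type glands, a difference of 0.78 (SE 1.92). Ggps1, which sends isoprenoids to a branch other than sterols, was the 1 gene with a higher knockout mean by brightest probe set. Its difference was 1.81 (SE 1.61), with 3.23 on wild-type array 1 against 7.51 on wild-type array 2. The other tested probe sets of Ggps1 gave 0.11 (SE 0.44) and -0.14 (SE 0.25). The 3 further tested probe sets of Hmgcs1 gave 1.34, 0.87 and 0.26, on each of which wild-type array 1 was the lowest array, whereas every tested probe set of the 9 lay below 0.

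Among 10 measured genes of SREBP control and lipoprotein uptake, 8 had a lower knockout mean by brightest probe set. The median of the 10 was -0.24, and 0 had an unadjusted p under 0.05 in limma. Dimmer probe sets of Srebf2 and Stard4 did, at -0.69 (limma unadjusted p 0.025) and 0.96 (limma unadjusted p 0.015). The brightest ones of these genes gave -0.29 and -0.05, and a further one of Stard4 gave -0.46. For Insig2 the brightest probe set gave -0.36 and the others 0.66 and -0.13. Insig1, a sterol-regulated brake on SREBP activation, read 7.63 and 7.40 in knockout glands, against 8.11 and 9.07 in wild-type glands, a difference of -1.07 (SE 0.39). Like Sqle and Cyp51, Insig1 was highest on wild-type array 2. Srebf1 differed by -0.38 (SE 0.23), and Mbtps1 and Mylip had higher knockout means, at 0.14 and 0.07. The 7 measured genes that use cholesterol for corticosteroids had a median of 0.00, from -0.27 in Fdx1 to 0.18 in Cyp11b2, with Hsd3b1 and Cyp21a1 both at -0.12.

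Genes outside the 9 were ordered by how close their course over the 4 arrays was to the mean course of the 9. Each gene was centred on its own mean, and closeness was the Euclidean distance over the 4 arrays in log2 units, which is a description over few points. The nearest 5 genes outside the 9 were Med21, a Mediator subunit, at 0.15, Esco1, which acetylates cohesin, at 0.16, Rdh9, of the retinol dehydrogenase family, at 0.17, Kcnmb4, a potassium channel subunit, at 0.17, and Chchd1, a mitochondrial ribosomal protein, at 0.17. Among the 9 themselves, which make up the mean course, the distance ran from 0.12 in Lss to 0.84 in Sc5d, with a median of 0.56, and 133 other genes were nearer than that median.

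Markers of other cells moved between arrays, and in whole tissue fewer cells of a type and less RNA per cell cannot be told apart. Adrenal cortex markers, 6 of 6 read, had a mean log2 level of 11.99 and 12.08 on the knockout arrays and 12.12 and 12.20 on the wild-type arrays. Of the 6, 3 were lower and 3 higher in the knockout. In 2 of them, Nr5a1 and Mrap, both knockout arrays lay below both wild-type arrays, against 20.5% of all genes. Chromaffin cell markers, 6 of 6 read, had 12.2 and 11.3 in knockout glands, against 12.4 and 11.6 in wild-type glands. The label of adrenal gland thus had both its cortical and its medullary markers on every array. Kidney markers, 6 on the array, were below 4 log2 units on all arrays. Among 6 tested macrophage markers the median difference was 0.23, with 4 higher and 2 lower in the knockout, from -0.22 in Csf1r to 2.36 in C1qb. C1qb read 10.46 and 10.54 in knockout glands, against 6.31 and 9.97 in wild-type glands, and its difference against wild-type array 2 alone was 0.53. Among 6 markers of smooth muscle and endothelium the median was -0.41, with 2 higher and 4 lower, from -0.74 in Tagln to 0.29 in Pecam1. Among 6 of fibroblasts and capsule it was -0.11, with 3 higher and 3 lower, from -1.37 in Rspo3 to 0.25 in Col1a1. None of these lists had a gene at an unadjusted p under 0.05 in limma.

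Fat cell markers, 8 on the array and 7 of them tested, had a mean log2 level of 5.39 and 7.47 in knockout glands, against 7.84 and 6.97 in wild-type glands. Ucp1, which marks brown fat, read 2.80 and 5.91 in knockout glands, against 10.05 and 7.24 in wild-type glands, and Lep stayed at 2.30 throughout. Cidea read 3.37 and 6.06 in knockout glands, against 9.78 and 6.78 in wild-type glands. In 2 of the 7 tested fat markers, Ucp1 and Cidea, both knockout arrays lay below both wild-type arrays, against 20.5% of all genes. Fat and liver also make cholesterol, so these values stand beside the enzymes. The list mean of knockout array 2 was above that of wild-type array 2 and below that of wild-type array 1. Ucp1 and Cidea were lower on knockout array 2 than on either wild-type array. Between array 2 of each genotype, which the labels do not pair, the 9 enzymes were all lower in the knockout, with differences of -2.19 to -0.52. On knockout array 1 the list mean was below those of both wild-type arrays. Between array 1 of each genotype 8 of the 9 enzymes were lower in the knockout, with differences of -1.82 to 0.13. Liver markers had a mean of 3.44 and 3.65 in knockout glands, against 6.47 and 3.32 in wild-type glands, and Alb, at 8.86 on wild-type array 1, was 2.43, 2.43 and 2.42 elsewhere. Without that array the median difference of the 9 enzymes was -1.11. The part of other cell types in the differences was not tested.

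**Figure D4:**
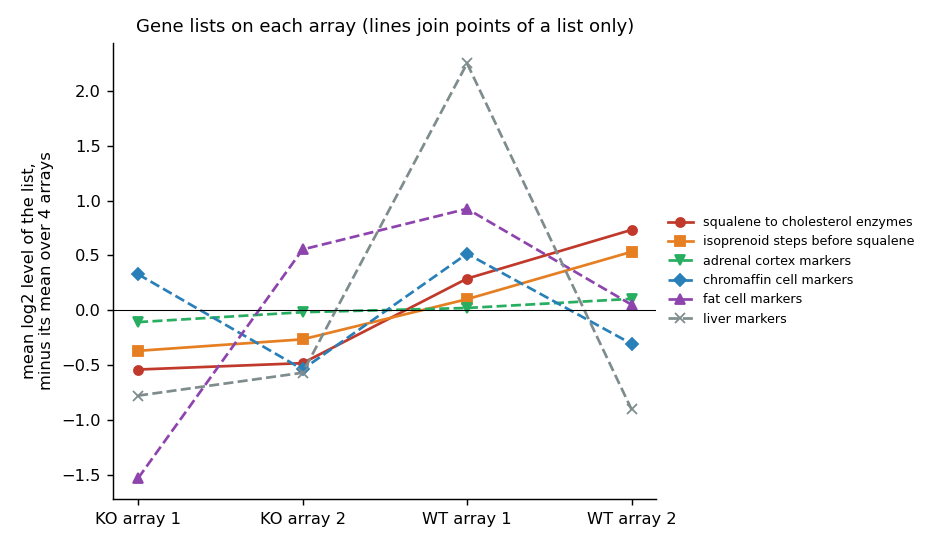
Mean log2 level of each gene list on each array, minus its own mean over the 4 arrays, with knockout (KO) arrays left of wild-type (WT) arrays. The squalene to cholesterol enzymes sit at -0.54 and -0.48 on the knockout arrays, against 0.29 and 0.73 on the wild-type arrays. The list mean of adrenal cortex markers rises in the same order of arrays, over a narrower range. The list means of fat, liver and chromaffin markers part from this course on at least 1 array. Within the fat list, Ucp1 and Cidea were lower on both knockout arrays than on both wild-type arrays.

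Avpr1a, the gene of the V1a receptor, was read by 2 probe sets near the floor, at 2.32 to 2.60 in knockout glands and 2.31 to 2.53 in wild-type glands, and so does not check the genotype labels. In limma 0 of 17228 probe sets reached the adjusted threshold, and 885 had an unadjusted p under 0.05, 518 of them lower in the knockout. The number of arrays limits the precision of every value above.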

How the data were processed

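Adrenal RNA was hybridised to Affymetrix Mouse Genome 430 2.0 arrays, 2 of V1a knockout and 2 of wild-type glands. The deposited values are log2 expression of each probe set that the authors computed with GCRMA in Bioconductor 3.14, per the labels' protocols. The log2 scale was read from the values, 2.30 to 14.9. The labels give no GCRMA version and no filter. GCRMA compresses differences near its floor.

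No further scaling was applied. The 64 control probe sets were left out, and probe sets at 4 log2 units or more on at least 2 of 4 arrays were tested with limma 3.58.1 in R 4.3.3 (genotype only, eBayes without trend, 2 residual degrees of freedom). p-values were adjusted by Benjamini-Hochberg over all 17228. The brightest tested probe set stood for a gene. SDs are between the 2 arrays per genotype, and SEs are limma's. Gene symbols came from the platform annotation, where all 9 matched GRCm38.p6 by gene ID. The scripts were tested on simulated data. Groups came from the sample titles.

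The 9 genes and all gene lists were chosen with earlier results of these data known. Named were all 9 genes, and of each pathway list its 2 genes with the smallest p and those against its median, while marker lists are given mainly by their levels. Idi1, Lbr, Srebf2, Stard4, Insig2, Nr5a1, Mrap, Ucp1, Cidea, Lep, Alb, Cyp11b2, Tagln, Pecam1, Col1a1, C1qb and Csf1r were chosen after their values were seen. Alternatives were 2 other filters, quantile normalization, median centring, a robust eBayes with a trend, plain probe sets, a replicate block, each array left out, mean or median of a gene's probe sets, and limma's test against a 2-fold difference.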

Additional observations from a re-analysis of the deposited data

How the results depend on the processing

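Under every alternative run the median difference of the 9 enzymes was from -1.21 to -0.86, and 7 to 9 of them had every knockout array below every wild-type array. With plain probe sets only, Hsd17b7 drops out and 7 of the 8 left did so (median -0.91). Of 116 differences of single enzymes under the alternatives, 115 were below 0. The exception was Sc5d without wild-type array 2, and leaving out 1 array at a time put Sc5d between -0.47 and 0.084. The medians were -1.21 to -0.86 and the counts 8 to 9 when 1 array was left out. The number of probe sets past an adjusted p of 0.05 in limma was 0 there, as on all arrays. It was 2 instead of 0 with a filter at 6 log2 units, 2 with quantile normalization, 2 with centred arrays and 2 with plain probe sets only, none of them the brightest probe set of an enzyme. The smallest adjusted p of an enzyme under any alternative was 0.0797, in Sqle without wild-type array 2, where 1 wild-type array is assumed to vary like the knockout arrays. The labels number the samples of both genotypes 1 and 2 without saying that a number pairs them. Across tested probe sets the step from array 1 to 2 correlated at 0.154 between the genotypes, and with the replicate block the median was -0.96, with 8 enzymes without overlap and 0 probe sets called. Probe sets near the floor limit what can be read of 8 of the 21.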
